A study of Mus musculus with 127 samples.

Results

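Cd83, Icam1, Cd40, Cd80, Cd86, Cd69 and Cd274 encode surface molecules that immune cells place on their membrane when they are activated and through which they adhere to or signal to other cells. These 7 genes were taken by name from a bulk RNA-seq table of 23366 mouse gene symbols, and all 7 had a row in it. The rule is a list of names and uses no measured value, but the names were chosen with earlier results of these data known. Counts of passes among them are therefore a description and no test of the list. The table covers blood-forming cells of mouse bone marrow, identified by surface markers and labelled LT, ST and MPP, the usual abbreviations of long-term and short-term hematopoietic stem cells and of multipotent progenitors. All cells were cultured at 37C and 5% CO2 in a medium named HSPC media.

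Young mice 1, 2 and 3 and old mouse 2 gave cells treated together with 100 ng/ml LPS and 1 ug/ml Pam3csk4, sampled at 0, 0.5, 1, 2, 4, 8 and 12 h. Young mouse 4 and old mouse 4 gave cells cultured with neither agent, sampled at 0, 2, 4 and 8 h. The labels call the mice young or old and give no strain, genotype or age in time units, and the gates of the sort are not given in the sources used here. Among the 0 h libraries, some from young mouse 1, young mouse 2 and old mouse 2 carry the label LPS+PAM at 0 h, and all 0 h libraries were read as a baseline. No mouse gave both courses. Column names give each stimulated mouse its own date mark, while young mouse 4 and old mouse 4 share a mark without a date. Ligand, mouse and set of columns thus cannot be told apart between the courses. A mouse is a replicate here, but the main fits took libraries of the same mouse as independent. Each p-value thus rests on the spread within groups of mice, shared over all groups of a fit. Where the courses are compared, the groups hold both ages, so that spread also holds age.

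LPS is recognised by Toll-like receptor 4 and Pam3csk4, a synthetic lipopeptide, by the Toll-like receptor 2 and 1 pair. Both receptors signal through the adaptor MyD88 to NF-kappa-B and AP-1 transcription factors, which act on many genes of inflammation. On dendritic cells, macrophages and B cells such signals raise CD80 and CD86, the B7 ligands of CD28 and CTLA-4 on T cells, and CD40, the receptor of CD40 ligand. CD83 marks mature dendritic cells and slows the turnover of MHC class II and CD86, ICAM1 is the adhesion ligand of the integrin LFA-1, CD69 is an early activation receptor of lymphocytes that opposes the exit receptor S1PR1, and CD274 (PD-L1) is the inhibitory ligand of PD-1. Hematopoietic stem and progenitor cells carry Toll-like receptors themselves.

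RefSeq promoters (build GRCm38.p6) were held for 3 of the 7 genes, Icam1, Cd80 and Cd274. The Icam1 promoter is shown because Icam1 passed the test below in every cell type, and the Cd274 promoter because Cd274 passed it in none. Each is the 250 bases upstream of the annotated start on the plus strand, at chr9:21015690-21015939 for Icam1 and at chr19:29367188-29367437 for Cd274. Capitals mark matches to the searched motifs, which are described after the sequences.
Icam1: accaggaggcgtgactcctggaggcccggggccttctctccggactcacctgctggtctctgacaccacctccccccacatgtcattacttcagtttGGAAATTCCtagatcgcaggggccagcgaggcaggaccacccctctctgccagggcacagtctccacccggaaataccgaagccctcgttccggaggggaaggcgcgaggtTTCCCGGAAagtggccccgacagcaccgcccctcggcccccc
Cd274: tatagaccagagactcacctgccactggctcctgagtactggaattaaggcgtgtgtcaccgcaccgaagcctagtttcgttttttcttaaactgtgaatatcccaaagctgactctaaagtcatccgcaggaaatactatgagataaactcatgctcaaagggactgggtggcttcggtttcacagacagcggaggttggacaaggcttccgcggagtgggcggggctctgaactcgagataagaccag
The motifs, read on both strands, were the 10-base NF-kappa-B consensus, its 9-base relative GGAANTTCC, the STAT motif TTCNNNGAA, the AP-1 motif TGANTCA and a core of the interferon-stimulated response element. In Icam1 the run GGAAATTCC begins 153 bases and the run TTCCCGGAA 42 bases upstream of the start. Of 32851 RefSeq promoters of this length, 0.813% hold a match to GGAANTTCC, 7.02% to TTCNNNGAA, 7.25% to the NF-kappa-B consensus, 6.75% to TGANTCA and 2.98% to the interferon element. Icam1 has no match to the other 3 motifs, Cd274 none to any of the 5, and the Cd80 window (not printed) 1, to TGANTCA. GGAANTTCC and TTCNNNGAA are their own reverse complements, so each match is found on either strand, and the 2 matches in Icam1 do not overlap. A match is only a match of letters.

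Of 127 deposited libraries, 6 near-empty libraries of LT cells of old mouse 2 held 7 to 41 counts and were dropped, and technical repeats were summed to 108 libraries of 990801 to 11764630 counts (median 4200713) and 6241 to 14096 detected genes. The no-ligand libraries were shallower, with median totals of 1934674, 2169141 and 2355355 counts in LT, ST and MPP against 4267471, 4876300 and 4622624 counts with ligand. Stem and progenitor markers (10 genes, among them Kit and Cd34) summed to 247 to 5106 CPM (counts scaled to a common library total) over all libraries. At 0 h these sums already differed between the courses. In LT they were 898 to 3077 CPM in the ligand course and 534 to 689 CPM in the no-ligand course. In ST they were 1287 to 4433 and 675 to 950 CPM, and in MPP 1802 to 3973 and 600 to 1041 CPM. At 0 h Slamf1, which marks LT cells, had a median of 26.7 CPM in LT over the 6 mice and was at 0 in 5 of 6 mice in ST, while Flt3, a marker of MPP, had medians of 32.5 CPM in LT and 346 CPM in MPP. The rest of the list did not all follow the labels. Mecom and Gata2 had their highest medians in LT, Cd34 in MPP, and Kit, Ly6a, Procr, Hlf and Meis1 in ST. Procr, Hlf and Meis1 had medians of 15.7, 58.0 and 96.4 CPM in LT and 54.1, 98.3 and 167 CPM in ST. Young mouse 3 stood apart. Its 6 neutrophil granule genes summed to medians of 86.3, 318 and 116 CPM in LT, ST and MPP against medians of 13028 to 64946 CPM in the other mice, and its monocyte and macrophage markers to medians of 19.7, 18.2 and 142 CPM against 269 to 1434 CPM. In the no-ligand course the monocyte and macrophage sums were 1653 to 1986 CPM in LT at 0 h and 256 to 449 CPM at 8 h. They were likewise lower at 8 h in ST (1704 to 1732, then 313 to 401 CPM) and in MPP (1756 to 1899, then 323 to 506 CPM). The part of these differences in the results was not tested, and the results that passed are also given without each mouse.

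Levels are CPM of the deposited total, so that a value compares libraries and not genes. In a bulk sample, fewer cells of a type and less RNA per cell cannot be told apart. Changes are log2 fold changes ± SE from edgeR's quasi-likelihood test across all genes, 2-sided, with Benjamini-Hochberg adjusted p and a threshold of 0.05. In the 3 young stimulated mice, 31 of the 126 tests of the 7 genes at 6 times in 3 cell types passed, all of them higher than at 0 h. Cd83 passed in 7, Icam1 in 13 and Cd69 in 11 of 18 tests each, while Cd40, Cd80, Cd86 and Cd274 passed in none. DESeq2 passed 16 tests of Cd83, 15 of Icam1 and 18 of Cd69, and limma voom 2, 9 and 5. Of the 31 passes, 15 were lost in limma voom and 15 in edgeR fits of the compared libraries alone. Whether the 3 values of a time overlapped those at 0 h was also read. Across the 18 conditions and the 12503 genes averaging 1 CPM or more, 4.82% of the comparisons were higher without overlap. At 0.5 h edgeR passed 0 of 21 tests, with 7 at an unadjusted p under 0.05, while DESeq2 passed 4 and limma voom 0.

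In LT, the genes past the threshold were Cd83, Icam1 and Cd69 at 1 h, Cd83 and Icam1 at 2 h, and Icam1 at 4 and 8 h. Of the 13678 genes tested, 0.146% were called higher in LT at 0.5 h, 0.249% at 1 h, 0.292% at 2 h, 0.241% at 4 h, 0.234% at 8 h and 0.227% at 12 h. In ST, Cd83, Icam1 and Cd69 passed at 1 and 2 h, Icam1 and Cd69 at 4 and 8 h, and Cd69 at 12 h. The share of all genes called higher in ST was 0.146% at 0.5 h, 0.3% at 1 and at 2 h, 0.256% at 4 and at 8 h and 0.271% at 12 h. In MPP, Cd83, Icam1 and Cd69 passed at 1, 2 and 4 h, and Icam1 and Cd69 at 8 and 12 h. There 0.095% of all genes were called higher at 0.5 h, 0.234% at 1 h, 0.263% at 2 h, 0.336% at 4 h, 0.292% at 8 h and 0.3% at 12 h. With the mouse as a block in the fit, the passes among the 42 tests of each cell type went from 7 to 16 in LT, from 11 to 14 in ST and from 13 to 14 in MPP.

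Cd83, the marker of mature dendritic cells, stood at no more than 49.8 CPM at 0 h and at no less than 280.3 CPM at 2 h in each young stimulated mouse and cell type. In LT, young mice 1, 2 and 3 held 0, 17.5 and 3.55 CPM at 0 h, 113, 98.6 and 237 CPM at 0.5 h and 283, 684 and 1555 CPM at 1 h. At 2 h the same mice held 1109.8, 1074 and 2669 CPM, and at 12 h 97.1, 393 and 57.3 CPM. No stimulated LT value at any time overlapped the 0 h values, and young mouse 3 was the highest of the 3 from 0.5 to 4 h and the lowest at 8 and 12 h. The change was 7.04 ± 1.53 (adjusted p = 0.0148) at 1 h and 7.91 ± 1.59 (adjusted p = 0.00486) at 2 h in LT. At 4, 8 and 12 h the LT changes of 5.73 ± 1.44, 4.18 ± 1.34 and 4.70 ± 1.37 missed the threshold (adjusted p = 0.0679, 0.229 and 0.202) and passed it with the mouse block (adjusted p = 0.0103, 0.0286 and 0.0252).

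In ST, Cd83 stood at 49.8, 0 and 10.2 CPM at 0 h and at 1096, 1829 and 3570.4 CPM at 1 h. It reached 1004, 2827 and 4359.8 CPM at 2 h and was 7.37, 575 and 199.8 CPM at 12 h. Young mouse 1 thus ended below its own 0 h level, and ST at 12 h was the only 1 of the 18 conditions in which the Cd83 values overlapped those at 0 h. The ST change was 6.95 ± 1.52 (adjusted p = 0.0141) at 1 h, 7.23 ± 1.54 (adjusted p = 0.00955) at 2 h and 5.84 ± 1.45 (adjusted p = 0.0623) at 4 h, the last of which passed with the mouse block (adjusted p = 0.0488). In MPP, the 3 mice held 10.7, 12.1 and 1.49 CPM at 0 h, 280.3, 1071 and 2082 CPM at 2 h and 325, 565 and 1086 CPM at 4 h. Young mouse 1 was the lowest and young mouse 3 the highest at each time from 0.5 to 8 h in MPP. The MPP change was 6.92 ± 1.52 (adjusted p = 0.0208) at 1 h, 7.34 ± 1.55 (adjusted p = 0.0111) at 2 h and 6.46 ± 1.49 (adjusted p = 0.0262) at 4 h. At 8 h it was 5.28 ± 1.41 (adjusted p = 0.122), with 0.0346 under the mouse block.

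**Figure D1:**
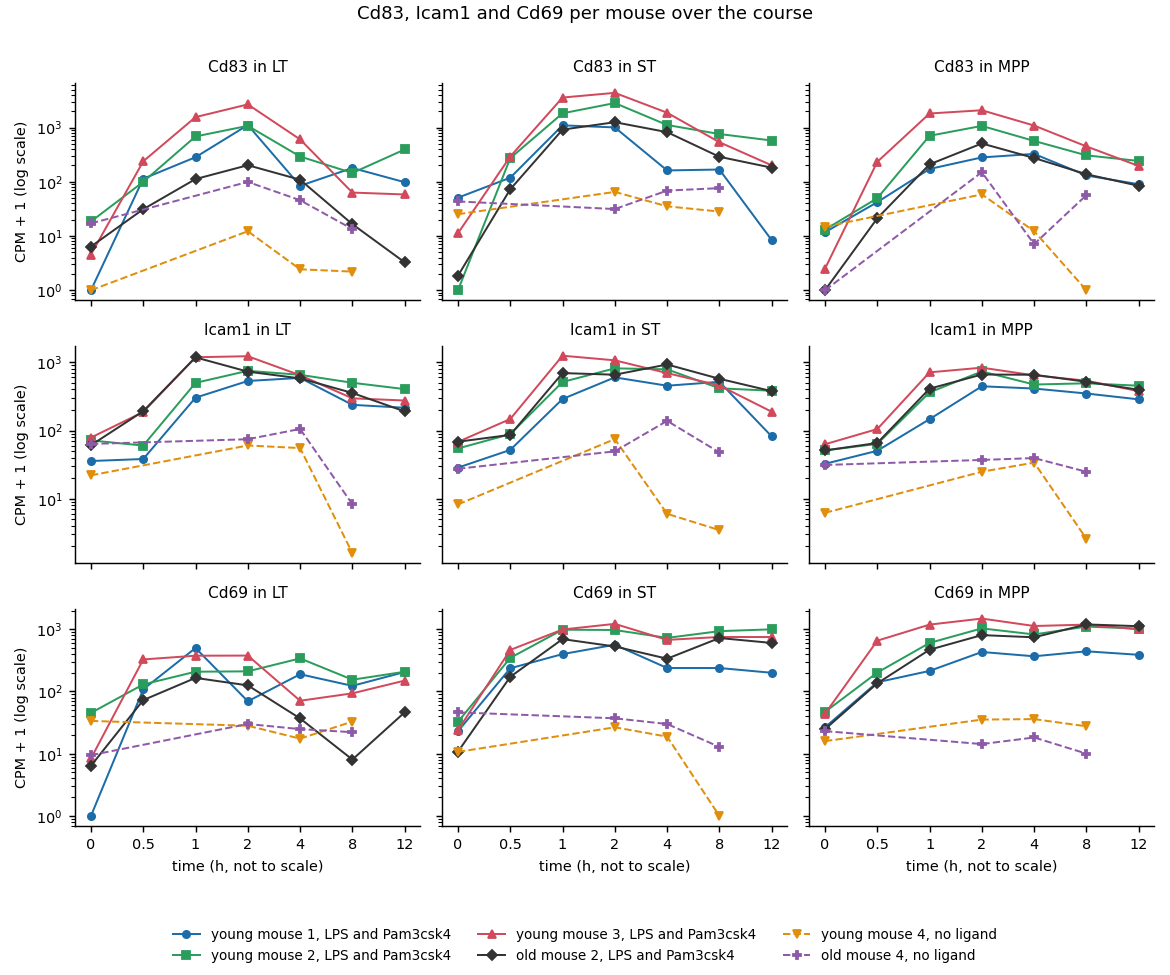
CPM + 1 on a log axis against hours for Cd83, Icam1 and Cd69 in LT, ST and MPP, with 1 line for each mouse; solid lines are cells with LPS and Pam3csk4, dashed lines cells without. With ligand the lines of all 3 genes are higher at 2 h than at 0 h, and each Cd83 line is lower at 12 h than at 2 h.

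Icam1, the LFA-1 ligand, was the member with the most passes and had a measurable level in every 0 h library. In LT it stood at 34.8, 70.7 and 77.9 CPM at 0 h in young mice 1, 2 and 3. It was 37.3, 59.3 and 186 CPM at 0.5 h, 302, 499 and 1187 CPM at 1 h and 532, 750.3 and 1229 CPM at 2 h. At 0.5 h the groups still overlapped, and from 1 h on no value overlapped those at 0 h in any of the cell types. The LT change was 3.60 ± 0.63 (adjusted p = 0.000955) at 1 h, 3.87 ± 0.64 (adjusted p = 0.000256) at 2 h, 3.51 ± 0.63 (adjusted p = 0.00131) at 4 h and 2.52 ± 0.60 (adjusted p = 0.0438) at 8 h. At 12 h the LT mice held 215, 404 and 275 CPM, a change of 2.33 ± 0.60 (adjusted p = 0.0909) that passed with the mouse block (adjusted p = 0.000278).

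In ST, Icam1 held 27.6, 53.6 and 67.2 CPM at 0 h, 601, 815 and 1069 CPM at 2 h and 81.1, 382 and 188 CPM at 12 h. The ST change was 3.98 ± 0.64 (adjusted p = 0.000168) at 1 h, 4.19 ± 0.65 (adjusted p = 7.2e-05) at 2 h, 3.83 ± 0.64 (adjusted p = 0.0003) at 4 h and 3.32 ± 0.62 (adjusted p = 0.00213) at 8 h. The ST change at 12 h, 2.21 ± 0.60 (adjusted p = 0.0921), again passed only with the mouse block (adjusted p = 0.000752). In MPP, Icam1 went from 31.5, 50.1 and 62.0 CPM at 0 h to 146, 362 and 713 CPM at 1 h and 445, 735 and 834 CPM at 2 h. It was still 286, 453 and 377 CPM at 12 h, and young mouse 1 was the lowest and young mouse 3 the highest of the 3 at each time from 0 to 2 h. MPP was the cell type in which Icam1 passed at all 5 times from 1 h on, with changes of 3.23 ± 0.62 (adjusted p = 0.00422), 4.03 ± 0.65 (adjusted p = 0.000116), 3.56 ± 0.63 (adjusted p = 0.000837), 3.40 ± 0.63 (adjusted p = 0.00138) and 3.09 ± 0.62 (adjusted p = 0.00407) in order of time.

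Cd69, the early activation receptor, did not overlap its 0 h values in any of the 18 conditions. In LT it was 0, 44.3 and 7.38 CPM at 0 h in young mice 1, 2 and 3 and 107, 129 and 326 CPM already at 0.5 h. The LT values were 499, 207 and 375 CPM at 1 h, 68.6, 209.8 and 377 CPM at 2 h and 122, 154 and 92.4 CPM at 8 h. The mice did not share a peak in LT, since young mouse 1 was highest at 1 h, young mouse 2 at 4 h and young mouse 3 at 2 h. The change in LT passed at 1 h, at 4.46 ± 0.96 (adjusted p = 0.0121). At 0.5, 2, 4, 8 and 12 h the LT changes were 3.46 ± 0.91, 3.76 ± 0.93, 3.61 ± 0.92, 2.85 ± 0.89 and 3.49 ± 0.91. Their adjusted p was 0.201, 0.0546, 0.0686, 0.204 and 0.105, and with the mouse block 0.0075, 0.00196, 0.00126, 0.0109 and 0.00153, so that all 5 passed there.

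In ST, Cd69 was 22.0, 31.6 and 22.9 CPM at 0 h, 563, 973 and 1221 CPM at 2 h, 237, 932 and 752 CPM at 8 h and 199, 997 and 749 CPM at 12 h. Young mouse 1 was the lowest of the 3 from 0 h to 12 h. The ST change was 5.13 ± 0.99 (adjusted p = 0.00268) at 1 h, 5.30 ± 0.99 (adjusted p = 0.00155) at 2 h, 4.54 ± 0.96 (adjusted p = 0.0102) at 4 h, 4.74 ± 0.97 (adjusted p = 0.00617) at 8 h and 4.73 ± 0.97 (adjusted p = 0.00758) at 12 h. At 0.5 h it was 3.81 ± 0.93 (adjusted p = 0.0943), with 0.00602 under the mouse block. MPP cells gave 25.5, 46.0 and 42.8 CPM at 0 h, 430.5, 1033 and 1486 CPM at 2 h, 441, 1104 and 1188 CPM at 8 h and 388, 1023 and 996 CPM at 12 h. In MPP the changes of 4.27 ± 0.95 (adjusted p = 0.0209), 4.91 ± 0.98 (adjusted p = 0.0044), 4.48 ± 0.96 (adjusted p = 0.0121), 4.70 ± 0.97 (adjusted p = 0.00679) and 4.51 ± 0.96 (adjusted p = 0.00947) at 1, 2, 4, 8 and 12 h all passed.

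**Figure D2:**
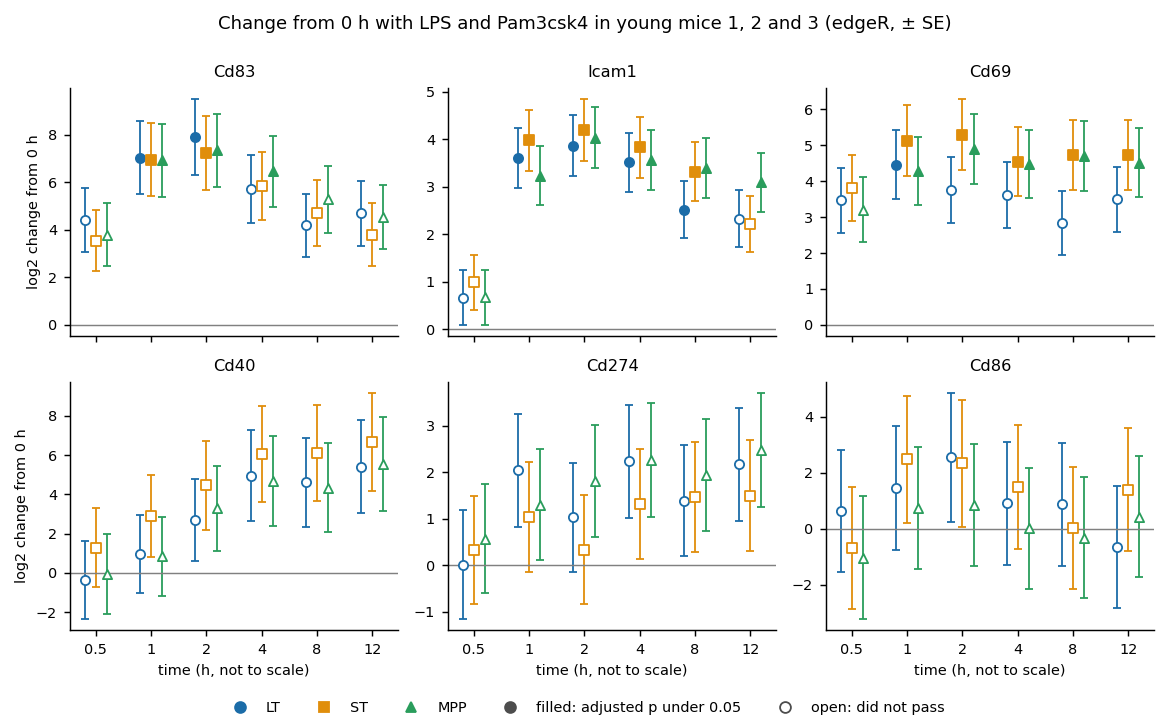
Log2 fold change against 0 h with its SE (vertical axis) by hour of stimulation for Cd83, Icam1, Cd69, Cd40, Cd274 and Cd86 in LT, ST and MPP of young mice 1, 2 and 3, where filled points passed the adjusted p threshold of 0.05. Filled points appear in the Cd83, Icam1 and Cd69 panels alone, and the Icam1 bars are the shortest.

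The passes depended on young mouse 2 and, for Cd83 and Cd69, also on young mouse 3. Without young mouse 1, 11 of the 11 Cd69, 7 of the 7 Cd83 and 12 of the 13 Icam1 results still passed. Without young mouse 2 none did, with adjusted p of at least 0.160 for Cd69, 0.165 for Cd83 and 0.195 for Icam1. Without young mouse 3, 0 of the 11 Cd69 and 0 of the 7 Cd83 results passed, with adjusted p of at least 0.103 and 0.0912, and 12 of the 13 Icam1 results did. The changes kept their direction. Without young mouse 2 the log2 changes lay between 4.41 and 6.98 for Cd69, 6.50 and 10.17 for Cd83 and 2.31 and 4.29 for Icam1. Without young mouse 3 they lay between 3.64 and 4.98 for Cd69, 5.39 and 7.01 for Cd83 and 2.77 and 4.26 for Icam1. All 31 had an unadjusted p under 0.05 in each of these fits. Young mouse 3, with the low granule and monocyte sums, had the highest Cd83 of the 3 mice at 2 h in every cell type.

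Of the other 4 genes, Cd40, the receptor of CD40 ligand, had its higher levels from 4 h on and not in every mouse. In LT it was 15.3, 0 and 0 CPM at 0 h in young mice 1, 2 and 3, 386, 46.8 and 19.9 CPM at 4 h and 246, 357 and 0 CPM at 12 h. ST gave 0, 5.51 and 0 CPM at 0 h, 209, 122 and 27.4 CPM at 4 h and 288, 253 and 0 CPM at 12 h. In both cell types young mouse 3 stood apart from the other two, with 1.75 CPM in LT and 5.17 CPM in ST at 8 h and 0 counts in both at 12 h. A count of 0 there allows up to 3 counts, which is 0.785 CPM in LT and 3.03 CPM in ST. In MPP the 3 mice lay closer together, with 2.49, 2.93 and 0 CPM at 0 h, 32.3, 63.2 and 32.9 CPM at 4 h and 68.2, 104 and 65.4 CPM at 12 h, and no MPP value overlapped those at 0 h at 2, 4, 8 or 12 h. Old mouse 2 held 3.86, 203 and 69.1 CPM in LT, ST and MPP at 12 h. The changes at 12 h were 5.42 ± 2.37 (adjusted p = 0.51) in LT, 6.66 ± 2.51 (adjusted p = 0.256) in ST and 5.55 ± 2.39 (adjusted p = 1) in MPP. The LT change took the opposite sign, at -7.53, in a fit without libraries of fewer than 8000 detected genes. Of the 18 Cd40 tests edgeR passed 0, with 8 at an unadjusted p under 0.05, while DESeq2 passed 3 and limma voom 4.

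Markers of dendritic cells, which carry much CD40 when mature, were read over the same hours, and so were those of monocytes and macrophages, which also carry it. Over the 4 stimulated mice their 6 genes (among them Ccr7, Itgax and Zbtb46) summed to 21.9 to 68.5 CPM at 0 h and 181 to 725 CPM at 12 h in MPP, and to 14.4 to 76.5 CPM and 48.3 to 367 CPM in ST. In LT the same sum was 18.3 to 72.6 CPM at 0 h and 14.5 to 79.9 CPM at 12 h, with Itgax and Siglech at 0 in all 4 mice at 12 h. In ST 5 of the 6 genes were detected at both times, with Clec9a at 0, and in MPP all 6. In MPP the dendritic sum and Cd40 were both higher at 12 h than at 0 h in all 4 stimulated mice. In ST and LT this did not hold in each mouse. In ST at 12 h, young mouse 3 had a sum of 284 CPM with Cd40 at 0, and young mouse 1 a sum of 48.3 CPM with Cd40 at 288 CPM. In LT at 12 h, young mouse 1 had a sum of 14.5 CPM with Cd40 at 246 CPM. The 7 monocyte and macrophage genes in the table summed, in young mice 1, 2 and 3 and old mouse 2, to 1208, 922, 11.0 and 576 CPM at 0 h and 1761, 1929, 111 and 1315 CPM at 12 h in ST. In MPP they summed to 1339, 622, 142 and 625 CPM at 0 h and 1526, 866, 360.4 and 930.1 CPM at 12 h, so that all 4 mice were higher at 12 h in both cell types. In LT the sum was higher at 12 h in the 3 young mice, at 2249, 1669 and 88.7 CPM against 1781, 975 and 7.93 CPM, and lower in old mouse 2. In ST at 12 h, Ccr2 and Fcgr1 were at 0 in all 4 mice. Cd40 there was 288, 253, 0 and 203 CPM in young mice 1, 2 and 3 and old mouse 2. B cell markers (6 genes) summed to 39.9 to 471 CPM at 0 h and 12.6 to 199 CPM at 12 h in LT. In ST they summed to 54.6 to 286 and 53.0 to 236 CPM, and in MPP to 48.0 to 287 and 131 to 170 CPM. T and NK cell markers (6 genes) summed to 30.3 to 171 and 9.18 to 37.9 CPM in LT. In ST they summed to 22.4 to 177 and 0 to 13.9 CPM, and in MPP to 93.1 to 224 and 13.7 to 26.7 CPM. The part of any of these cell types in the Cd40 or Cd69 levels was not tested.

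Cd274, the PD-1 ligand, was measured at 0 h in most mice and spread widely. In LT, young mice 1, 2 and 3 held 3.74, 9.18 and 67.0 CPM at 0 h and 77.3, 196 and 79.5 CPM at 12 h. ST gave 25.2, 41.5 and 80.4 CPM at 0 h and 69.5, 89.0 and 246 CPM at 12 h, and MPP 16.8, 16.1 and 29.1 CPM at 0 h and 88.2, 123 and 99.2 CPM at 12 h. The 12 h values lay above those at 0 h without overlap in LT and MPP, but not in ST, where young mouse 3 already had 80.4 CPM at 0 h. In 6 of the 18 conditions the values lay above those at 0 h without overlap, beside the 4.82% given above for all genes. The changes at 12 h were 2.17 ± 1.22 (adjusted p = 0.602) in LT, 1.49 ± 1.19 (adjusted p = 0.669) in ST and 2.47 ± 1.23 (adjusted p = 1) in MPP. None of the 18 Cd274 tests passed in edgeR, none had an unadjusted p under 0.05, and DESeq2 passed 0 and limma voom 2.

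Neither of the B7 ligands, Cd86 and Cd80, passed an edgeR test with ligand. Cd86 in LT was 0, 3.74 and 13.7 CPM at 0 h and 28.9, 65.4 and 7.35 CPM at 2 h with ligand. In ST it was 15.2, 2.33 and 13.4 CPM at 0 h and 0, 80.2 and 60.9 CPM at 2 h, and in MPP 23.4, 17.6 and 10.2 CPM and 19.8, 9.11 and 49.7 CPM. The groups overlapped in each of these comparisons, and ST at 1 h, with 34.5, 46.6 and 69.0 CPM, was the only 1 of the 18 conditions in which they did not, a share near that of all genes. The changes at 2 h were 2.56 ± 2.30 (adjusted p = 0.884) in LT, 2.34 ± 2.27 (adjusted p = 1) in ST and 0.84 ± 2.18 (adjusted p = 1) in MPP, the last of which was -0.23 without young mouse 3. None of these 18 Cd86 tests against 0 h with ligand passed in edgeR, DESeq2 or limma voom, and 0 had an unadjusted p under 0.05 in edgeR.

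Cd80 was low in most libraries. The LT libraries of young mice 1, 2 and 3 were all at 0 at 0 h, which allows up to 0.139 CPM over the 3, and the highest value of any stimulated young library was 18.4 CPM, in MPP of young mouse 1 at 2 h. MPP at 12 h, with 4.67, 6.16 and 3.55 CPM against 1.72, 1.25 and 0 CPM at 0 h, was the only 1 of the 18 conditions in which the values did not overlap those at 0 h, a share near that of all genes. ST values at 12 h were 13.0, 6.43 and 0 CPM, and old mouse 2 there had 21.1 CPM, the highest of all 108 libraries. Of the 18 Cd80 tests edgeR passed 0, with 2 at an unadjusted p under 0.05, DESeq2 0 and limma voom 2.

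**Figure D3:**
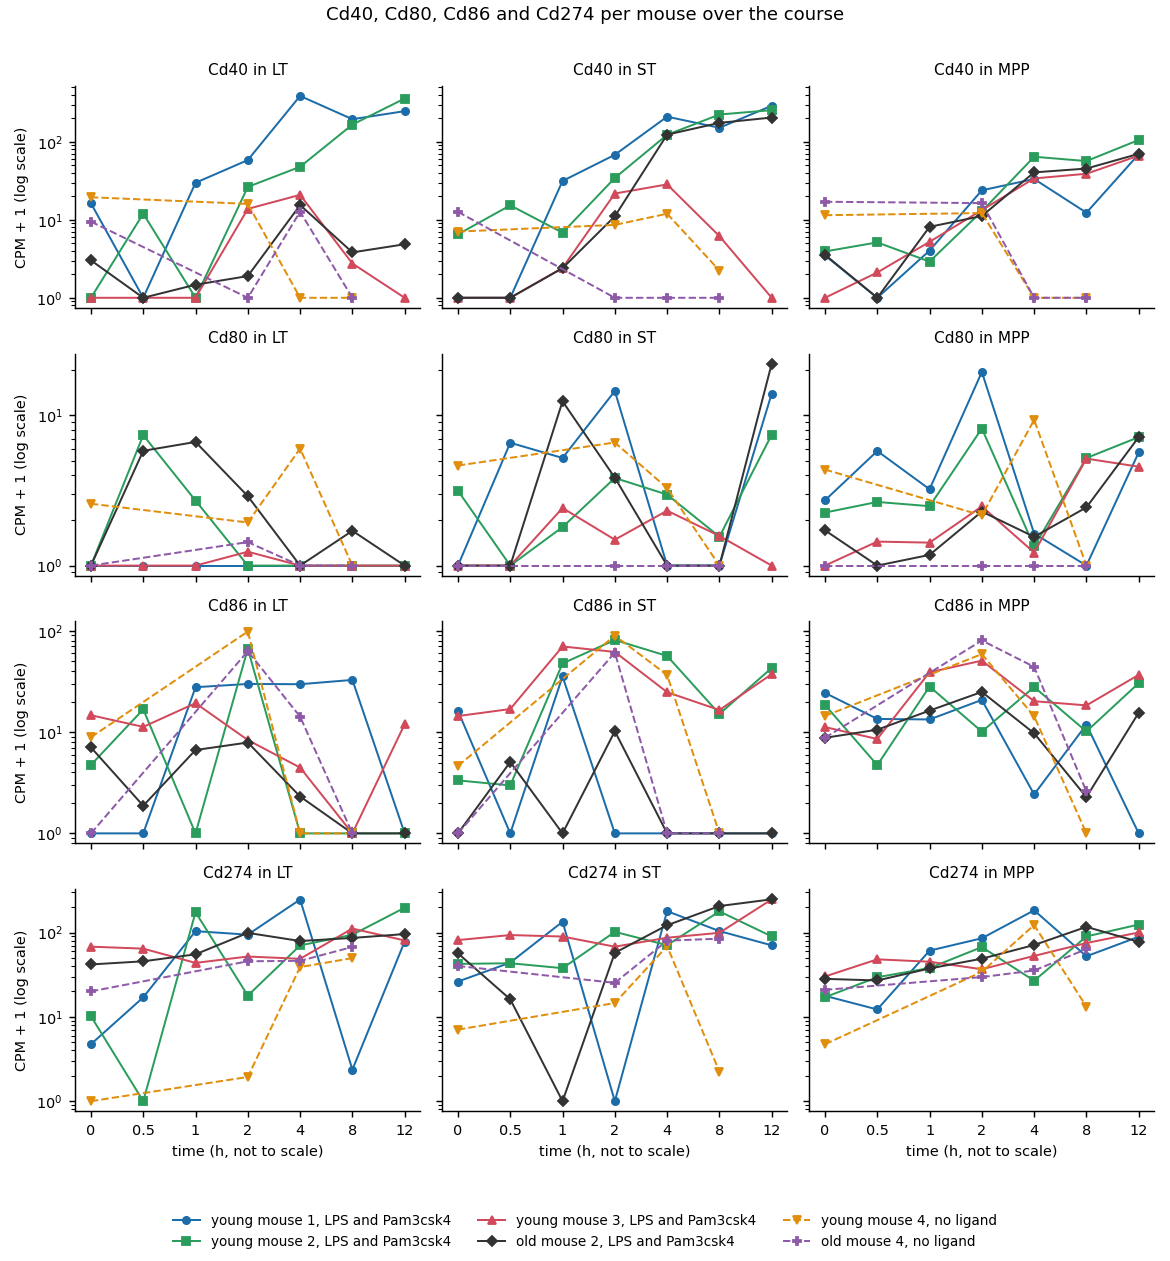
CPM + 1 on a log axis against hours for Cd40, Cd80, Cd86 and Cd274 in LT, ST and MPP, with 1 line for each mouse, solid with LPS and Pam3csk4 and dashed without. The Cd40 lines of ST and LT part at 8 h and at 12 h, where young mouse 3 is at 0, and the dashed Cd86 lines peak at 2 h.

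Whether the cell types differed in their response was read from the same fit, as the change of one cell type minus that of another. At 2 h Cd83 was 2730.1 ± 1680.0 CPM in ST, 1618 ± 911 CPM in LT and 1144 ± 903 CPM in MPP (mean ± SD, n = 3), an order in which neighbours differed by less than their spread over mice. Within mice, Cd83 at 2 h was higher in ST than in MPP in all 4 stimulated mice. LT stood above MPP in young mice 1 and 3 (1110 against 280 CPM and 2669 against 2082 CPM). The LT and MPP levels were nearly equal in young mouse 2 (1074 against 1071 CPM), and LT was lower in old mouse 2 (201 against 507 CPM). Icam1 at 2 h was 837 ± 356 CPM in LT, 829 ± 234 CPM in ST and 671 ± 202 CPM in MPP, again within the spread over mice. Within mice, Icam1 at 2 h was higher in LT than in MPP in all 4 stimulated mice. The levels were 750 against 735 CPM in young mouse 2 and 1229 against 834 CPM in young mouse 3. LT against ST went both ways, and ST stood above MPP in the young mice but not in old mouse 2. Cd69 at 8 h was 911 ± 409 CPM in MPP, 640.3 ± 360.5 CPM in ST and 123 ± 30.7 CPM in LT. The 3 LT values of Cd69 at 8 h lay below all ST and MPP values, while those of ST and MPP overlapped. The share of all genes with such a gap between cell types was not counted. The change of Cd69 from 0 h to 8 h in LT minus that in ST was -1.89 ± 1.18 (adjusted p = 1), and LT minus MPP was -1.86 ± 1.18 (adjusted p = 1). Both differences took the opposite sign without young mouse 2, at 0.35 and 0.21. Among the 126 such tests of the 7 genes over 6 times, edgeR passed 0, with 0 at an unadjusted p under 0.05, as did DESeq2 and limma voom. The share of all 13678 genes called in either direction was 0% in 17 of these 18 comparisons and 0.00731% for LT minus ST at 12 h.

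Levels of the 3 early genes at 12 h were set against those at 2 h in the same mouse. Cd83 at 12 h was 0.734 to 36.6% of its own 2 h level over the 4 stimulated mice and 3 cell types. Icam1 at 12 h was 13.5 to 64.2% of its 2 h level. Cd69 at 12 h was 36.4 to 299% of its 2 h level in LT, 35.3 to 114% in ST and 67.0 to 139% in MPP. Every Cd83 and Icam1 pair was thus lower at 12 h than at 2 h, while Cd69 pairs went both ways. Old mouse 2 alone held 805 CPM of Cd69 in MPP at 2 h and 1119.6 CPM at 12 h. The difference of Cd83 between 12 h and 2 h was -3.21 ± 1.28 (adjusted p = 0.537) in LT, -3.44 ± 1.29 (adjusted p = 0.356) in ST and -2.81 ± 1.26 (adjusted p = 1) in MPP, none past the threshold. For Icam1 in ST it was -1.98 ± 0.59 (adjusted p = 0.21), which passed with the mouse block (adjusted p = 0.0083). Of 42 tests of 8 h or 12 h against 2 h, edgeR passed 0, with 8 at an unadjusted p under 0.05, DESeq2 passed 3 and limma voom 0. Of all genes 0.0292%, 0.0146% and 0.00731% were called in either direction at 8 h in LT, ST and MPP, and 0.00731%, 0.0366% and 0.0146% at 12 h.

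**Figure D4:**
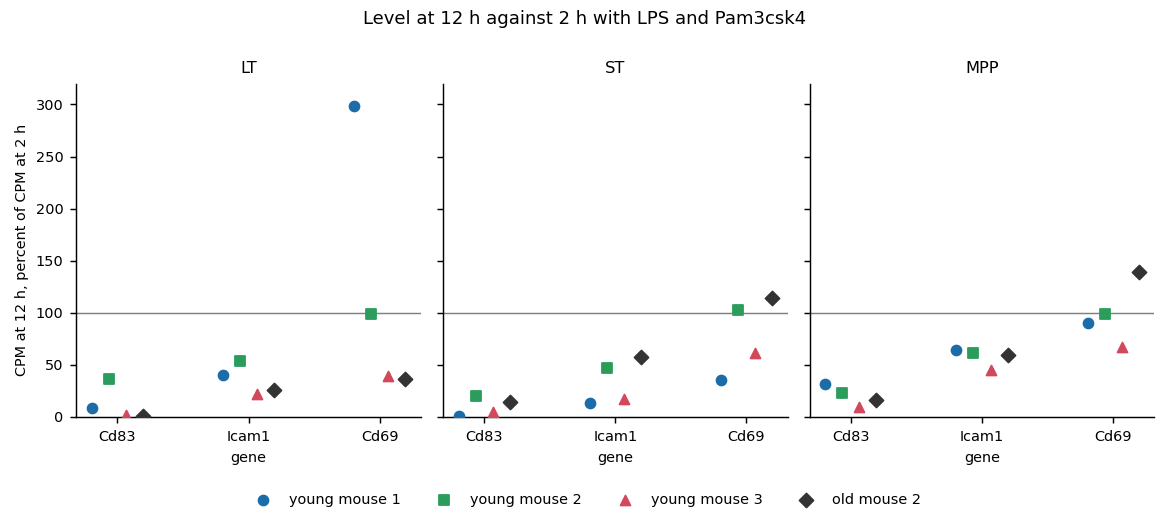
Level at 12 h as a percent of the level at 2 h in the same mouse, on the vertical axis, by gene and cell type, with 1 point for each of the 4 stimulated mice and a line at 100%. All Cd83 and Icam1 points lie under the line, and Cd69 points of ST and MPP lie on both sides of it.

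Cells without ligand gave the background of culture, between mice whose marker sums also differed at 0 h, as given above. How many of all genes differed as much between the courses was not counted. At 2 h Cd83 without ligand was 11.2 and 98.3 CPM in LT, 64.0 and 30.4 CPM in ST and 57.5 and 149 CPM in MPP of young mouse 4 and old mouse 4. These values lay below those of all 4 stimulated mice at 2 h in the same cell type, of which the lowest were 201 CPM in LT, 1004 CPM in ST and 280.3 CPM in MPP. Cd69 without ligand stayed between 0 and 45.1 CPM in all cell types and times, under every value with ligand from 0.5 h on except those of old mouse 2 in LT at 4 h (35.9 CPM) and 8 h (7.05 CPM). Cd40 without ligand was 0 and 0 CPM in LT, 1.24 and 0 CPM in ST and 0 and 0 CPM in MPP at 8 h, where the LT zeros allow up to 0.989 CPM over the 2 mice.

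The ligand test, the change from 0 h with ligand minus that without, over both ages, passed for 2 of the 63 tests of the 7 genes at 2, 4 and 8 h. The first was Icam1 in LT at 8 h, at 5.90 ± 1.12 (adjusted p = 0.0148). There young mouse 4 and old mouse 4 had gone from 21.1 and 62.7 CPM at 0 h to 0.601 and 7.30 CPM (1 and 10 counts) at 8 h. The value of young mouse 4 lay below the 1.80 CPM of 3 counts in its library, so the size of the fold rests on few counts. Young mice 1, 2 and 3 and old mouse 2 with ligand held 237, 501, 296 and 355 CPM at 8 h. The difference thus held both a higher level with ligand and a lower one without. The other was Cd69 in ST at 8 h, at 7.08 ± 1.55 (adjusted p = 0.0348), where young mouse 4 had 0 and old mouse 4 11.8 CPM, so that the size of the fold depends on how the fit treats the count of 0. The Icam1 result in LT missed the threshold without old mouse 2 (adjusted p = 0.137), young mouse 2 (0.264) or young mouse 3 (0.0579). The Cd69 result in ST missed it without old mouse 2 (adjusted p = 0.17), old mouse 4 (0.115), young mouse 2 (0.111), young mouse 3 (0.126) or young mouse 4 (0.47). The Icam1 difference in MPP at 8 h, 3.65 ± 1.04 (adjusted p = 0.337), passed with the mouse block (adjusted p = 0.00714). Of all 14401 genes, the share called higher was 0% in LT at 2 h, 0% at 4 h and 0.0347% at 8 h. At 2, 4 and 8 h the shares were 0.0139%, 0.00694% and 0.0833% for ST, then 0.00694%, 0.0278% and 0.0625% for MPP. At an unadjusted p under 0.05 stood 28 of the 63 tests, and DESeq2 passed 12 and limma voom 4. Both Icam1 in LT and Cd69 in ST at 8 h passed in DESeq2 and missed the threshold in limma voom (adjusted p = 0.0958 and 0.133). All 4 passes of limma voom were Cd40, in ST and MPP at 4 and 8 h, and DESeq2 passed Cd40 in LT and ST at 8 h and in MPP at 4 and 8 h. In edgeR 7 of the 9 Cd40 tests had an unadjusted p under 0.05 and none passed. DESeq2 also passed Cd86 in LT and ST at 8 h, where limma voom gave -2.46 and 1.97 with adjusted p of 0.842 and 0.894.

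Levels without ligand were not constant over the culture. Cd86 at 2 h without ligand was 97.4 and 62.0 CPM in LT, 88.8 and 60.0 CPM in ST and 57.9 and 79.3 CPM in MPP of young mouse 4 and old mouse 4, against 7.90 and 0, 3.64 and 0 and 13.4 and 7.79 CPM at 0 h. All 6 values at 2 h lay above all 6 at 0 h, and by 8 h the highest was 1.59 CPM. These values come from 2 mice, and the share of all genes with such a gap was not counted. In edgeR the tests at 2 h did not pass, at 4.51 ± 2.94 (adjusted p = 1) in LT, 5.49 ± 3.09 (adjusted p = 1) in ST and 2.88 ± 2.72 (adjusted p = 1) in MPP with 2 mice each. Cd274 in LT went from 0 to 48.7 CPM in young mouse 4 and from 19.1 to 66.5 CPM in old mouse 4 between 0 and 8 h without ligand. Icam1 in LT at 8 h without ligand had a change of -3.27 ± 0.93 (adjusted p = 0.146), and in ST at 2 h one of 2.10 ± 0.84 (adjusted p = 1), both past the threshold with the mouse block (adjusted p = 0.0033 and 0.0421). The LT levels at 8 h were 1 count in young mouse 4 and 10 counts in old mouse 4. Among the 63 tests without ligand edgeR passed 0, with 8 at an unadjusted p under 0.05, DESeq2 3 and limma voom 4. Limma voom passed Cd86 in ST at 2 h (6.61, adjusted p = 0.0137), which DESeq2 did not (5.32, adjusted p = 0.822). DESeq2 passed Cd86 as lower at 8 h than at 0 h in LT and ST, where all libraries at 8 h were at 0, and Icam1 as lower in LT at 8 h (-3.38, adjusted p = 0.00592). The other passes of limma voom were Cd274 in LT at 8 h and Cd40 in MPP at 4 and 8 h. The share of all genes called in either direction was 0.0139%, 0.0903% and 0.201% in LT, 0.0208%, 0.125% and 0.236% in ST and 0.0417%, 0.111% and 0.236% in MPP at 2, 4 and 8 h.

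No difference between the cell types of the 4 young mice passed the test at 0 h. Icam1 was 51.1 ± 27.5 CPM in LT, 38.9 ± 26.7 CPM in ST and 37.2 ± 24.7 CPM in MPP (mean ± SD, n = 4). Cd83 was 5.27 ± 8.33, 21.1 ± 21.6 and 9.54 ± 5.51 CPM, Cd69 21.1 ± 20.9, 21.5 ± 8.998 and 32.3 ± 14.7 CPM and Cd274 19.97 ± 31.6, 38.3 ± 31.6 and 16.4 ± 10.4 CPM in the same order. Cd86 was 6.33 ± 5.86, 8.64 ± 6.60 and 16.1 ± 5.68 CPM and Cd40 8.43 ± 9.82, 2.89 ± 3.35 and 3.97 ± 4.51 CPM. Neighbours in the order of means differed by less than the sum of their SDs for each of these 6 genes. These SDs hold the spread between mice, although each mouse gave all 3 cell types. Within mice, Icam1 was highest in LT and Cd274 highest in ST in all 4 young mice. Cd69 was higher in MPP than in ST in all 4. For Cd83, Cd86 and Cd40 no pair of cell types kept its order in all 4. The share of all genes with such an order was not counted. With the mouse as a block 0 of these differences passed. Of 18 tests of 6 genes (Cd80 was too low to be tested) edgeR passed 0, with 0 at an unadjusted p under 0.05, and DESeq2 and limma voom passed 0. The share of all 11568 genes called was 0% in each of the 3 comparisons.

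The ages were compared at 0 h alone, with 2 old mice against 4 young ones. Icam1 in the old mice was 59.9 and 62.7 CPM in LT, and the 4 young mice lay between 21.1 and 77.9 CPM. Cd274 in LT was 40.8 and 19.1 CPM in the old mice and 0 to 67.0 CPM in the young mice. Old and young values overlapped in both. In 3 of the 21 comparisons they did not overlap, against 8.99% of the comparisons over all genes averaging 1 CPM or more. Cd83 in MPP was 0 in both old mice and 1.49 to 13.8 CPM in the young mice. Cd86 was 0 in both old mice and 2.33 to 15.2 CPM in the young mice in ST, and 7.78 and 7.79 CPM against 10.2 to 23.4 CPM in MPP. Cd83 in MPP and Cd86 in ST had an unadjusted p under 0.05 in edgeR (0.0257 and 0.00605, adjusted p = 1 for both), and Cd86 in ST passed in DESeq2 (adjusted p = 0.0302) but not in limma voom (adjusted p = 0.997). Of 21 tests edgeR passed 0, with 2 at an unadjusted p under 0.05, DESeq2 1 and limma voom 0, and 0% of all 12983 genes were called in each cell type.

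Old mouse 2 is the only old mouse with ligand, so its course is given as values with no test. Its Cd83 in LT was 5.39 CPM at 0 h, 201 CPM at 2 h and 2.27 CPM at 12 h, and at each time from 0.5 h on except 4 h it lay below all 3 young mice. In ST its Cd83 was 1253 CPM and in MPP 507 CPM at 2 h, both within the range of the young mice. Cd69 in LT was 124 CPM at 2 h and 7.05 CPM at 8 h, the latter below the young range of 92.4 to 154 CPM, whereas in MPP it was 1196 CPM at 8 h, above the young range of 441 to 1188 CPM. Icam1 in LT peaked at 1182 CPM at 1 h and was 729.7 CPM at 2 h, within the young range at both times. With 1 mouse, age and mouse cannot be told apart. Some of the LT libraries of this mouse were the near-empty ones, and its LT values come from the usable repeats.

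Genes that work with these molecules were read from 2 lists. Among 18 tested transcription factors known to act on such genes, those higher at 2 h were Junb, Nfkb2, Rel, Rela and Relb in LT, and Junb, Nfkb2 and Relb in ST and in MPP. Relb, a subunit of NF-kappa-B, went from 28.0 ± 16.7 to 448 ± 95.1 CPM in LT at 2 h (mean ± SD, n = 3), a log2 change of 4.08 ± 0.73 (adjusted p = 0.000949). Nfkb2, which encodes the precursor of its partner p52, changed by 4.06 ± 0.49 in LT, 4.10 ± 0.49 in ST and 4.11 ± 0.49 in MPP at 2 h (adjusted p = 3.3e-07, 1.9e-07 and 2.5e-07). Junb, an AP-1 subunit, was the 1 factor of the list that passed at 0.5 h, in all 3 cell types. At 8 and 12 h Nfkb2 and Relb were the 2 that passed, in each cell type. The median log2 change of the 18 factors at 2 h was 1.38 in LT, 1.40 in ST and 1.66 in MPP, beside -0.33, -0.22 and -0.21 over all genes tested.

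The second list held 40 costimulation partners, other ligands, receptors and adhesion partners of the same families, of which 36 were tested. Cd44, the hyaluronan receptor, was the 1 that passed, and it passed in 3 of the 18 comparisons. It went from 307 ± 152 to 1397 ± 352 CPM in ST at 2 h, a log2 change of 2.31 ± 0.46 (adjusted p = 0.00368), and from 335 ± 56.2 to 1240.2 ± 512 CPM in MPP at 2 h, a change of 2.11 ± 0.46 (adjusted p = 0.0131), and it also passed in MPP at 4 h. The median log2 change of the list at 2 h was -0.58 in LT, 0.34 in ST and -0.05 in MPP. With ligand minus without, Junb in MPP at 4 h was the only gene of both lists that passed.

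The genes whose pattern was most like that of each member were ranked by Pearson's r of log2(CPM + 1) over the 63 libraries of young mice 1, 2 and 3. These libraries share mice, times and depth, so r is a description. For Cd83 they were Gadd45b (0.853), Skil (0.816) and Icam1 (0.814), and for Cd69 they were Cd83 (0.799), Nfkbiz (0.794) and Gadd45b (0.779). For Icam1 they were Traf1 (0.904), Cx3cl1 (0.890) and Relb (0.885), the highest r of any member. Cd40 was most like Bcl2a1d (0.813), Tnfrsf1b (0.809) and Bcl2a1a (0.802), of which the Bcl2a1 genes are near-identical copies whose reads the counting may have split. The r was lower for Cd274, with Tbk1 (0.685), Srek1 (0.596) and Dennd5a (0.569), for Cd86, with Gpr132 (0.605), Rcl1 (0.597) and Oxr1 (0.561), and for Cd80, with Igj (0.517) and Pik3r6 (0.497). By Spearman's rho none of the 3 genes named for Cd274 and none of those for Cd86 was among the top 3. Skil for Cd83, Relb for Icam1, Bcl2a1a for Cd40, Nfkbiz for Cd69 and Pik3r6 for Cd80 were also outside it.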

How the data were processed

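Libraries were made from polyA RNA with SMART-seq2, per the labels. The deposited values are expected counts per gene symbol that the authors made with RSEM (version not given in the sources used here) on mm9, per the submitters' processing notes, and 89.5% of them are whole numbers. Libraries under 1000 counts were dropped, technical repeats summed and sums rounded to whole counts. The 7 genes and the other lists were chosen with earlier results of these data known, and every member is named whatever its result. Of the other lists, genes past the test at 2 or 8 h were named, and for likeness the top 3 genes with a mean of at least 10 CPM, of which 1 is not reported here.

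Tests used edgeR 4.0.16 (quasi-likelihood, TMM, filterByExpr, 2-sided, Benjamini-Hochberg over all genes, R 4.3.3), with SE from the log2 change and F. The 4 fits held 63 libraries and 13678 genes (young mice 1, 2 and 3 with ligand), 72 and 14401 (ligand against none, both ages), 12 and 11568 (0 h, young) and 18 and 12983 (ages). Only the first and second of these were tried on simulated data, for LT at 2 h alone. The simulated libraries were drawn independently, with no effect of the mouse. DESeq2 1.42.0 and limma 3.58.1 voom were alternatives, with others described at the end. Equal mouse numbers are the same animal by the labels. The mean correlation of deviations from group means was 0.192, 0.0684 and 0.408 between libraries of the same mouse (young mice 1, 2 and 3) and -0.127, -0.0518 and -0.208 between different mice. The main fits took libraries of the same mouse as independent. SEs and p-values rest on the spread within groups of 2 to 4 mice, and limits for a count of 0 (3 counts) cover counting error only.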

Additional observations from a re-analysis of the deposited data

Results flagged for a closer look

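In 21 groups of 4 young mice at 0 h (7 genes in 3 cell types), the gap between the most extreme mouse and the next was compared with the range of the group. In 2 groups the gap passed Dixon's 95% limit. That limit is made for normally distributed values, so its rate of 1 in 20 is no yardstick for levels with many zeros. Cd274 in LT was 67.0 CPM in young mouse 3 and 9.18 CPM in the next highest mouse, a gap of 0.863 of the range. Young mouse 3 is also the mouse with the low sums of granule and monocyte markers, and their part in this value was not tested. Cd80 in LT was 1.58 CPM in young mouse 4 and 0 in the other 3 mice, a gap of 1 of the range at a level of few counts. With the other mice at 0, this gap is 1 of the range whatever the value of young mouse 4.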

How the results depend on the processing

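For the response in young mice, 7 tests of the members passed in LT, 11 in ST and 13 in MPP. The counts in this order were 17, 19 and 16 with DESeq2, 1, 4 and 19 with limma voom, 11, 13 and 14 without a filter on low counts, 16, 14 and 14 with the replicate block (mouse), 0, 4 and 17 with the compared libraries alone and 13, 14 and 14 with young mouse 4 added at 0 h. Leaving out 1 young mouse gave 0 to 7 in LT, 0 to 16 in ST and 0 to 13 in MPP. For ligand against none (1, 1 and 0 passed), the counts were 3, 5 and 4 with DESeq2, 0, 2 and 2 with limma voom, 0, 0 and 0 with 1 technical repeat in place of the sum, 0, 0 and 4 with the compared libraries alone, 1, 1 and 1 with the replicate block, 1, 0 and 0 in young mice alone, and 0 to 1, 0 to 2 and 0 to 1 leaving out 1 mouse. For later against earlier times, where 0 passed, DESeq2 gave 1, 2 and 0 and the replicate block 0, 1 and 0. Without ligand, where 0 passed, DESeq2 gave 2, 1 and 0, limma voom 1, 1 and 2, the replicate block 1, 1 and 0, young mice alone 1, 0 and 0, and leaving out 1 mouse 0 to 1 in LT and 0 in ST and MPP. DESeq2 passed 1 test between the ages. Why these counts moved was not tested.

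Of 897 alternative values of the 67 tests given in the text, 4 took the opposite sign: Cd40 in LT at 12 h (-7.53 without libraries of fewer than 8000 detected genes, chosen after seeing the data), Cd86 in MPP at 2 h (-0.23 without young mouse 3, and -0.23 to 1.42 leaving out each mouse) and, at 8 h without young mouse 2, Cd69 in LT minus ST (0.35, range -2.83 to 0.35) and in LT minus MPP (0.21, range -2.63 to 0.21). These 67 tests were chosen after all were seen, so this is no measure of stability. Of 6287 alternative values of all 459 tests of the members, 414 took the opposite sign, 0 of them in a test that passed in either fit, so directions of tests that did not pass are not stable. The block changed no other call than those given above. Keeping the near-empty libraries could change only the fits with old mouse 2. No paired fit was possible between ages, which lie between mice, and a fit of the compared libraries alone, young mouse 4 added and young mice alone were run only where they apply. Levels on the TMM scale moved by less than 1 SD in 146 of 147 means. At the median totals given above, levels of a few CPM rest on few counts, which limits Cd80, Cd86 and early Cd40.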
